A study of Mus musculus with 12 samples.

Results

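The numbered Zfp genes are mouse genes named for a zinc finger protein and a serial number. Members were chosen by symbol alone, as the rows of the deposited expression table whose name is Zfp followed by digits only, with the RNA decay factor Zfp36 left out. There were 160 members among 10655 genes. The name promises zinc fingers, and the coding sequences bore it out for 156 of the 160: the C2H2 finger pattern was found in the longest coding sequence of all members other than Zfp330, Zfp703, Zfp707 and Zfp935. The mouse annotation used for positions (GENCODE M21 on GRCm38) holds 373 genes with such a name, of which 364 are protein coding.

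A C2H2 finger is a short protein loop folded around a zinc ion that is held by a pair of cysteines and a pair of histidines, and a row of such fingers can read a stretch of DNA. Many members carry a KRAB box before their fingers. This short domain recruits Trim28, which in turn brings the histone methyltransferase Setdb1 and HP1 proteins and silences the bound locus, and such genes are best known for shutting down transposons and guarding imprints. Members without a KRAB box are more mixed and include transcriptional activators, lineage regulators, ribosome factors and RNA-binding proteins.

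RNA was sequenced from mouse aortic endothelial cells in 12 libraries, 3 in each of 4 groups, named by the mother's diet first and the offspring's diet second. CD_CD denotes CD offspring of CD mothers, WD_CD CD offspring of WD mothers, CD_WD WD offspring of CD mothers, and WD_WD WD offspring of WD mothers; the title of the series calls the mothers' diet high-fat, and WD offspring received WD once more for 4 weeks. The sources used here do not give strain, age, sex or the number of animals behind a library, so p-values measure only the spread between these libraries, which may be technical. No genotype or other treatment is named for any group.

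The libraries held 4074413 to 19670570 reads in the table, and 6798 to 76277 of these fell in members. Values are normalised read counts, the reads divided by a size factor per library, so that 1 read is worth 0.347 to 0.669 in CD and 0.861 to 3.96 in WD offspring. The marker genes of cell types differed with the offspring's diet. All 12 endothelial markers had reads in every library, but their summed value was 54099 to 88824 in CD and 2099 to 34413 in WD offspring, lowest in CD_WD replicate 1. The 11 macrophage markers summed to 10899 to 103980 in CD and 41229 to 935139 in WD offspring, and none of them was at 0 in any library. Lyz2 made up most of this sum in WD offspring, with means of 233203 in CD_WD and 575380 in WD_WD. Under either mother's diet 10 of the 11 were higher in WD offspring by log2 fold change, and Mrc1 was lower. The 10 lymphocyte markers summed to 344 to 5224 in CD and 7242 to 400534 in WD offspring, with the highest value in CD_WD replicate 1. Cd79a had the largest part in CD_WD, with a mean of 90543, and all 10 were higher in WD offspring by log2 fold change. Markers at 0 in at least 1 library were Cd79b and Csf3r in CD_CD and Lmod1 in CD_WD. Of 5 neutrophil markers 4 were in the table, and they summed to 56.2 to 801 in CD and 13403 to 192565 in WD offspring. The 7 smooth muscle markers went the other way, with 11552 to 77827 in CD and 1039 to 21631 in WD offspring. The 6 fibroblast markers in the table (of 7) summed to 19865 to 58915 in CD and 2135 to 72450 in WD offspring. What part these shifts have in the differences between CD and WD offspring below was not tested, and in such bulk RNA fewer cells of a type and less RNA per cell cannot be told apart.

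**Figure D1:**
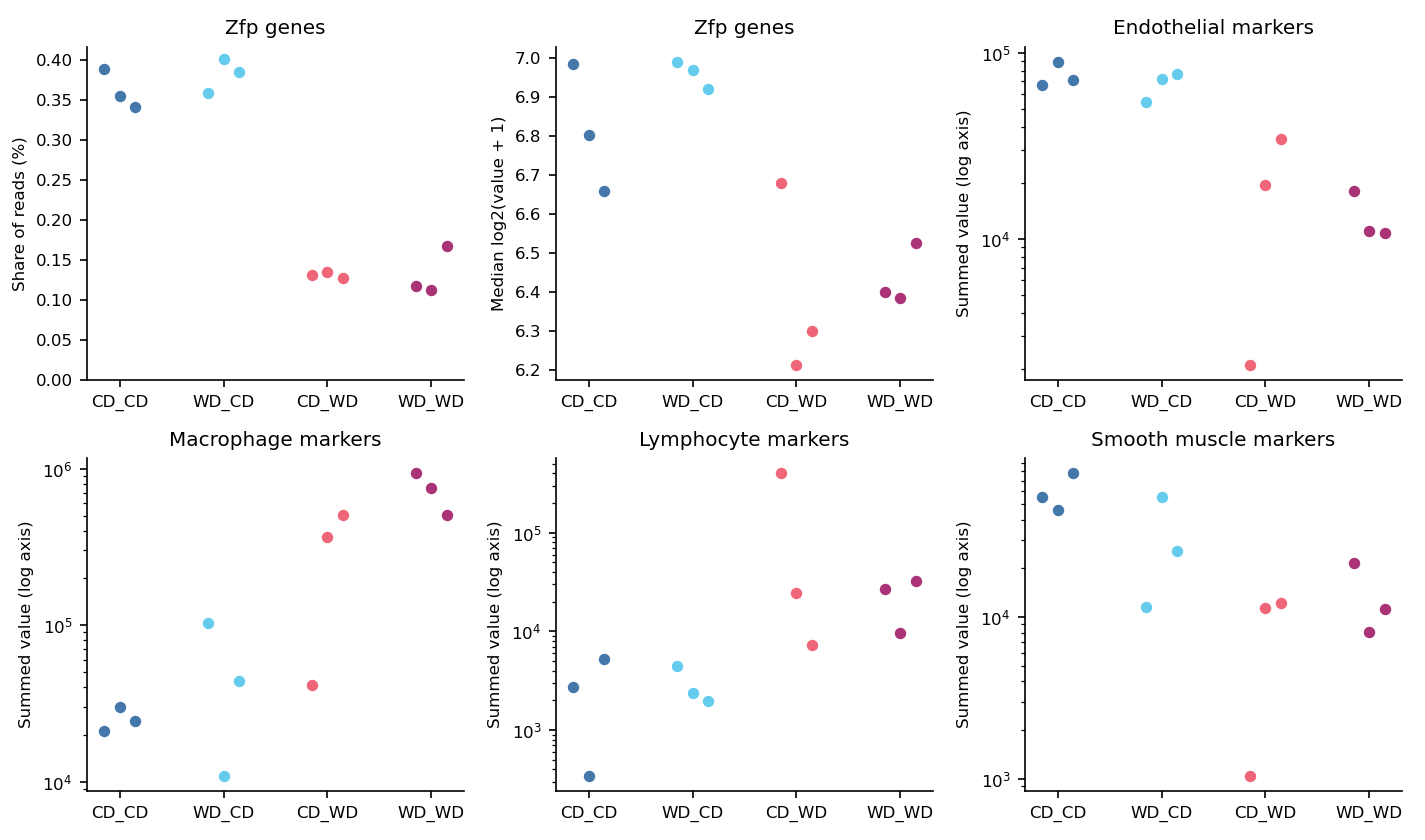
Each point is 1 library, grouped along the x axis by the diets of mother and offspring. The y axes give the percentage of reads in numbered Zfp genes, their median log2(normalised read count + 1), and the summed normalised read counts of marker lists on log axes. The Zfp share lies between 0.341% and 0.401% in CD and between 0.112% and 0.167% in WD offspring. The normalised sum of all genes was 6.82e+06 to 7.16e+06 in CD and 1.50e+07 to 2.86e+07 in WD offspring.

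The fingers printed first belong to the members on which the strongest differences between groups turn. Zfp281 and Zfp740, the members with the smallest adjusted p in any comparison, proved to carry closely related fingers, and so did Zfp148, which passed no test. The first finger of each is given below as coding DNA of GRCm38 read 5′ to 3′, with the codons of the zinc-binding cysteines and histidines in capitals. Zfp281 lies at chr1:136626063-136626125, plus strand, Zfp740 at chr15:102208810-102208872, plus strand and Zfp148 at chr16:33466912-33466974, plus strand.
Zfp281: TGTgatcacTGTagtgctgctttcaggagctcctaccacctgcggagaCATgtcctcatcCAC
Zfp740: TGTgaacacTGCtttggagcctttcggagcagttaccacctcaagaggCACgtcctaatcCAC
Zfp148: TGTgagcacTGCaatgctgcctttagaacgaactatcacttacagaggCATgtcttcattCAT
Among the 1548 fingers of all members, 1306 outside Zfp281 had the same length of 21 residues. The finger of Zfp740 was the most alike to that of Zfp281, with 17 of 21 residues and 45 of 63 bases equal, and the finger of Zfp148 came second, with 15 residues and 45 bases equal. The next shared 12 residues, and the median over all compared was 8. Zfp281 is known from embryonic stem cells as a regulator of pluripotency genes, and Zfp148 is its close relative that binds GC-rich promoters; the function of Zfp740 is less well described.

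Members with a KRAB box turned up in both directions of change, and 2 examples show the stretch by which the box was recognised. The codons of the residues that the pattern fixed are in capitals; the first stretch is from Zfp738 (chr13:67673629-67673670, minus strand), which rose in WD offspring of WD mothers, and the second from Zfp871 (chr17:32777468-32777509, minus strand), which fell.
Zfp738: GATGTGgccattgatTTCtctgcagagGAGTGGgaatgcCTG
Zfp871: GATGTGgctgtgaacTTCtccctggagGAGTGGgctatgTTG
The KRAB pattern was found in 57 of the 160 members. These had a median of 11 fingers, against 7 in the 103 members without it. Over all members the number of fingers ran from 0 to 36 with a median of 9, highest in Zfp142 with 36, Zfp236 with 30, and Zfp423, Zfp521 and Zfp646 with 27 each. In position the members were clustered: 65 had another member within 250 kb, among them 34 of the 57 with a KRAB pattern. Chromosome 7 held 31 members, chromosome 17 held 21 and chromosome 8 held 14. The most alike pairs were Zfp747 and Zfp764, sharing 39.7% of 8-residue words of the shorter protein, Zfp942 and Zfp944 35.8%, and Zfp868 and Zfp869 31.3%. Reads of such copies can be split between genes; 18 members shared at least 10% of their 50-base words with another gene.

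Most members were weakly expressed. Their mean normalised read count over 12 libraries ran from 36.1 to 2752 with a median of 102, against 257 for all genes, and 141 of the 160 lay under the median of all genes. Per kb of exon the median was 23.7 for members and 56.1 for all genes with an exon length. Without any read in at least 1 library were 44 members, or 27.5%, against 10.9% of all genes. The highest level was that of Zfp706, a protein with a single finger, at 2752 overall and 553 per kb of exon. It was followed by Zfp622 at 857, Zfp207 at 661, Zfp106 at 573 and Zfp236 at 525. Zfp251, Zfp933 and Zfp646 were lowest, at 36.1, 39.4 and 41.6. Per kb of exon, members with up to 4 fingers had a median of 34.8, those with 5 to 9 fingers 24.7 and those with 10 or more 18.4, while the KRAB pattern made little difference on that scale (23.4 with it and 24.7 without it). The residual SD between libraries of a group, on the scale of log2(value + 1), had a median of 1.20 for members, 0.81 for all genes and 1.10 for the lower-expressed 5327 genes.

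**Figure D2:**
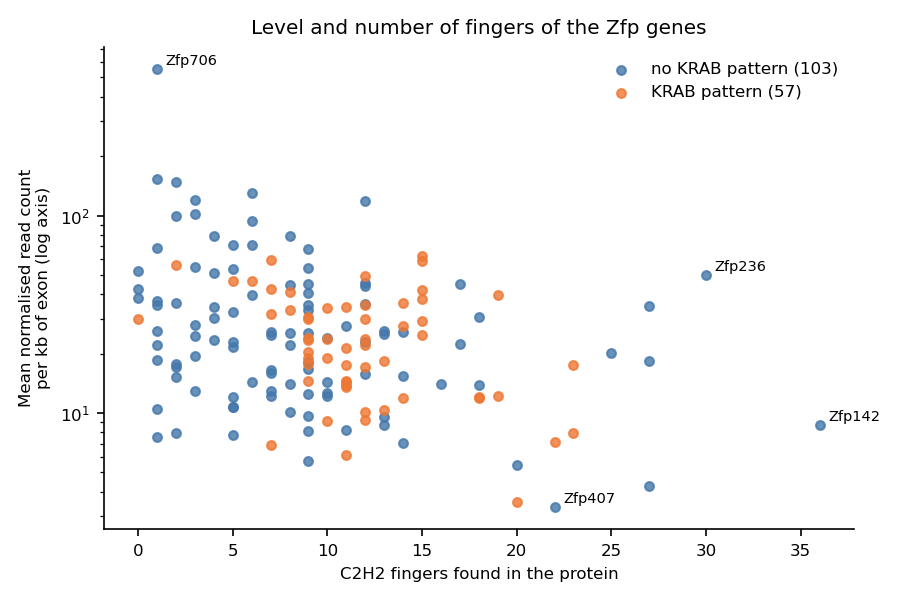
Each point is 1 of the 160 members, placed by the number of C2H2 fingers found in its protein (x) and its mean normalised read count per kb of exon over 12 libraries (y, log axis), and coloured by the KRAB pattern. Zfp706 stands alone at 553 per kb, and the members with 10 or more fingers have a median of 18.4 per kb.

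The largest contrasts in the data concerned the offspring's own diet, and the members' counts there were as follows. In WD offspring of WD mothers 5 members rose and 14 fell (3.12% and 8.75%), against 14.2% of all genes that rose and 10.2% that fell. In WD offspring of CD mothers 1 member rose and 2 fell (0.625% and 1.25%), against 9.46% and 5.55% of all genes. Most members are low in level, and among the lower-expressed genes of the table, 5.09% rose and 8.30% fell with WD mothers, where 3 and 10 of the 141 low members did, and 1.24% rose and 2.50% fell with CD mothers, where 0 and 1 of the 141 did. A gene counts as risen or fallen here where limma's adjusted p, over all 10655 genes, is under 0.05. Groups without overlap were counted too. With CD mothers 8 members (5%) were higher in each WD library than in each CD library and 30 (18.8%) were lower, against 21.9% and 21.6% of all genes; with WD mothers the counts were 7 (4.38%) and 26 (16.2%), against 21.9% and 19.4%.

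The members as a whole sat lower in WD offspring than the typical gene. Their median log2 level was 6.66 to 6.98 for CD_CD and 6.92 to 6.99 for WD_CD, against 6.21 to 6.68 for CD_WD and 6.38 to 6.52 for WD_WD. Only CD_WD replicate 1, at 6.68, reached the range of the CD offspring. For all genes the median log2 level was 7.85 to 7.97 for CD_CD and 7.90 to 7.98 for WD_CD. It was 7.63 to 7.79 for CD_WD and 7.79 to 7.85 for WD_WD, so part of the lower level is shared by all genes. The median log2 fold change of WD over CD offspring was -0.35 with CD mothers, where that of all genes was -0.02, and -0.57 with WD mothers, where that of all genes was 0.01. Without CD_WD replicate 3 the first was -0.18, and without WD_WD replicate 2 the second was -0.32; the second was -0.25 with DESeq2 and -0.37 with edgeR. Members with a negative change numbered 99 and 103 of 160, beside 5394 and 5316 of all 10655 genes. In sign, 110 of the 160 members (68.8%) went the same way with CD and with WD mothers, against 79.6% of all genes; these comparisons share no library. With each library scaled to its total reads instead, the median of all genes moved to -1.45 and -1.36 and that of members to -1.78 and -1.92, and the split of members became 0 risen and 45 fallen with CD mothers and 1 and 54 with WD mothers. The changes given here are therefore relative to the typical gene. The share of all genes that rose or fell on the total scale is not given. The 45 and 54 fallen members are thus no result about members alone. As a share of all reads, members took 0.341% to 0.401% in CD and 0.112% to 0.167% in WD offspring, without overlap. The summed value of members did overlap, at 23474 to 27536 in CD and 19678 to 37553 in WD offspring. The sum of all genes was 6.82e+06 to 7.16e+06 in CD and 1.50e+07 to 2.86e+07 in WD offspring. CD_WD replicate 1 gave the member sum of 37553, while the other WD offspring libraries held 19678 to 26916. What part the higher total and the members' own changes have in the lower share was not tested.

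**Figure D3:**
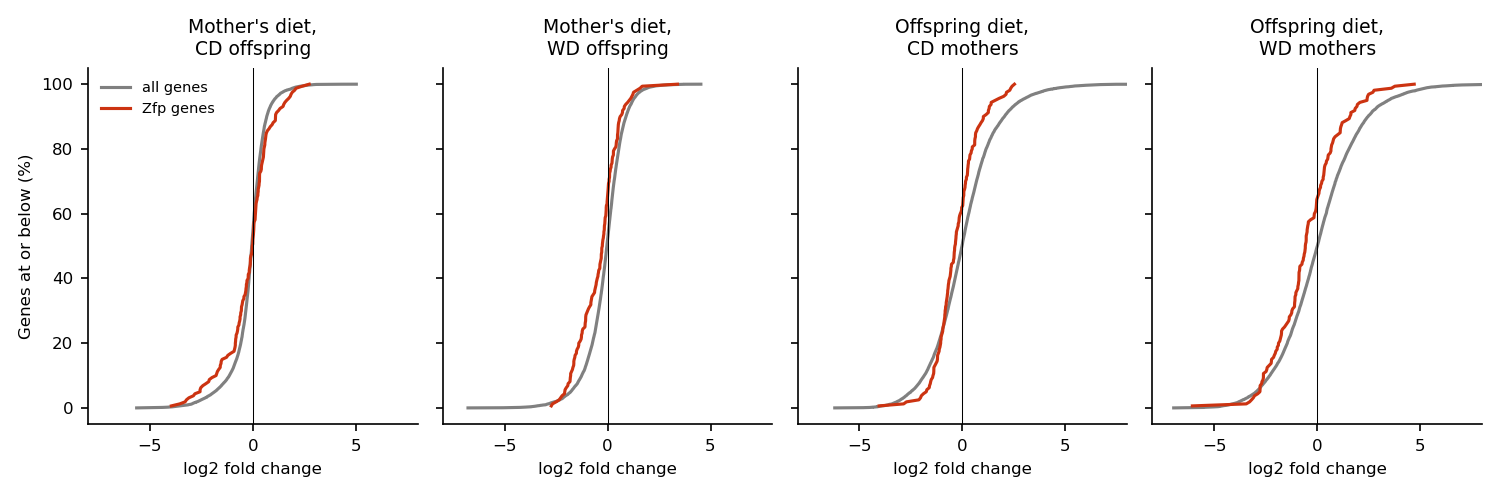
Cumulative percentage of genes (y) at or below a log2 fold change (x) for all 10655 genes and for the 160 numbered Zfp genes, in the 4 comparisons of diets; the outermost genes lie beyond the axis. For the offspring's diet the Zfp curve lies left of the curve of all genes around the middle, with medians of -0.35 and -0.57 against -0.02 and 0.01.

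Zfp622 is the relative of a yeast factor that matures the large ribosomal subunit in the cytoplasm. Its normalised read counts were 253, 371 and 389.5 in the CD_CD libraries and 412, 189 and 95.0 in the WD_CD libraries, against 2931, 925 and 881 for CD_WD and 1372, 1229.8 and 1231 for WD_WD. Every WD offspring library lay above every CD offspring library. The rise was 6.51-fold with WD mothers (log2 fold change 2.70 ± 0.55 SE, limma's adjusted p = 0.00487) and 4.02-fold with CD mothers (2.01 ± 0.55, adjusted p = 0.0279). The first passed under all 15 alternatives; the second was lost without CD_CD replicate 1, 2 or 3 or CD_WD replicate 1 (adjusted p = 0.109, 0.0739, 0.0549 and 0.0810) and on the total scale (0.353).

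Zfp593, counterpart of a yeast protein that escorts the large subunit out of the nucleus, rose with WD mothers. It measured 33.3, 73.2 and 52.3 in the CD_CD libraries and 36.1, 15.5 and 106 in the WD_CD libraries, against 380.3, 169 and 170.4 for CD_WD and 241, 185 and 257 for WD_WD. Its WD offspring libraries were again all above its CD offspring libraries. The change was 5.63-fold with WD mothers (2.49 ± 0.72, limma's adjusted p = 0.0262), and 4.35-fold with CD mothers without passing (2.12 ± 0.72, adjusted p = 0.0671). With WD mothers the rise did not pass without WD_CD replicate 1 or 2 or WD_WD replicate 1 or 3 (adjusted p = 0.0534, 0.0896, 0.0587 and 0.0630), nor on the total scale (0.196), with edgeR (0.0701) or with the compared groups alone (0.0804). Of the 2088 exon bases of Zfp593 (chr4:134243289-134245592), 1627 overlap the antisense gene E130218I03Rik, and the sources used here do not say whether reads were counted by strand, so the reads of both cannot be told apart.

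Zfp330, a nucleolar protein, was at 91.2, 182 and 189 in WD_CD and 365, 539.9 and 483 in WD_WD, without overlap, a rise of 3.10-fold (1.63 ± 0.47, limma's adjusted p = 0.0257). It shares 19.1% of its 50-base words with another gene, and the rise did not pass without WD_CD replicate 1 (0.0792), WD_WD replicate 2 (0.0723) or WD_WD replicate 3 (0.0589) or on the total scale (0.703). With CD mothers its groups were at 122, 293 and 249.5 and 352, 439 and 247 and overlapped.

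Zfp598 is the ubiquitin ligase that marks collided ribosomes, and it took the opposite course. It measured 86.7, 58.0 and 83.6 in CD_CD, 59.4, 169 and 114 in WD_CD and 91.3, 71.1 and 88.7 in CD_WD, but 17.98, 12.1 and 19.8 in WD_WD. All 3 WD_WD libraries lay below the 9 others, on 20 reads in all. Against WD_CD it fell 6.11-fold (-2.61 ± 0.69, limma's adjusted p = 0.0174), a call that was lost only without WD_CD replicate 2 (adjusted p = 0.0704) among the libraries left out in turn, and with the compared groups alone (0.134). Zfp638, which processes RNA and silences unintegrated retroviral DNA, was at 469.6, 318 and 559.7 in WD_CD and 164, 208 and 59.4 in WD_WD. It fell 3.43-fold (-1.78 ± 0.49, adjusted p = 0.0215), though not without WD_CD replicate 1 (0.0521), WD_CD replicate 3 (0.0710) or WD_WD replicate 3 (0.0554), nor with the compared groups alone (0.0651).

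Of the 10 genes listed for ribosome, RNA and spindle roles 9 were in the table, of which 2 rose and 2 fell with WD mothers and 1 rose with CD mothers. Over all genes 14.2% rose and 10.2% fell with WD mothers, and 9.46% rose and 5.55% fell with CD mothers. The spindle protein Zfp207 was at 771 ± 60.5 (SD, n = 3) in CD_CD and 443 ± 128 in CD_WD, and at 926 ± 38.8 in WD_CD and 503 ± 72.9 in WD_WD. Its groups did not overlap under either mother's diet, yet it passed in neither (adjusted p = 0.0861 and 0.0522). Zfp706, the most abundant member, was at 2157, 1475 and 1326 in CD_CD and 8275, 2931 and 2401 in CD_WD, a log2 difference of 1.26 ± 0.42 that did not pass (adjusted p = 0.0640) and that turned to -0.18 on the total scale. The other listed genes, Zfp106, Zfp326 and Zfp830, had adjusted p-values of 0.163, 0.725 and 0.756 with WD mothers.

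**Figure D4:**
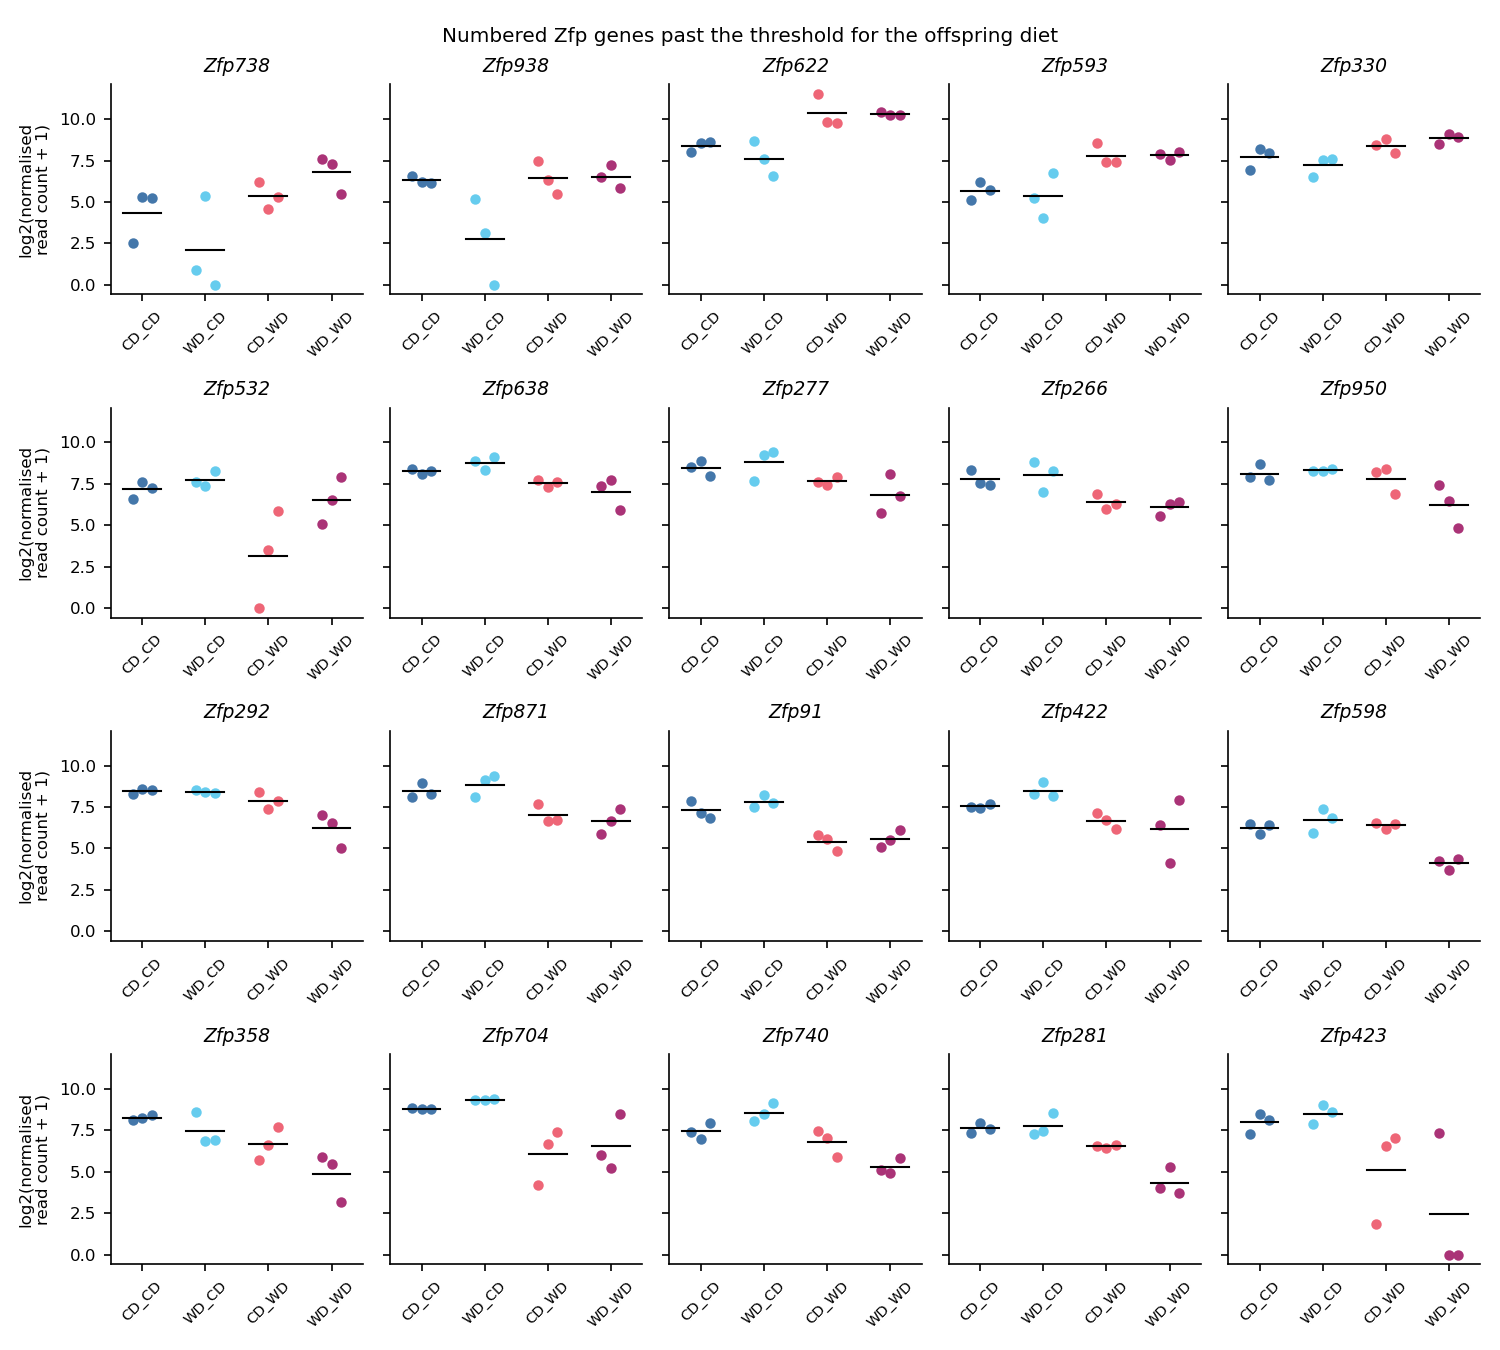
Normalised read counts on the scale log2(value + 1) (y) of the 20 members that rose or fell with the offspring's diet, by group (x); points are libraries and bars are group means. Zfp622 is higher in all 6 WD offspring libraries, while Zfp281, Zfp740 and Zfp598 are lowest in the 3 WD_WD libraries.

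Of 9 listed general activators and chromatin proteins, all in the table, none passed with CD mothers and 2 fell with WD mothers. Beside them, 9.46% of all genes rose and 5.55% fell with CD mothers, and 14.2% rose and 10.2% fell with WD mothers. Zfp281, whose finger is printed above, measured 159.6, 242 and 194 in CD_CD and 157, 176 and 379.8 in WD_CD. Among WD offspring it was at 93.8, 85.8 and 98.1 with CD mothers and 15.4, 37.9 and 11.9 with WD mothers. The WD offspring lay below the CD offspring throughout, and WD_WD lay below CD_WD. With WD mothers the fall was 10.9-fold (-3.45 ± 0.63, limma's adjusted p = 0.00268), and it passed under all 15 alternatives. With CD mothers the difference of -1.07 ± 0.63 did not pass (adjusted p = 0.278). The WD_WD value rests on 34 reads over 3 libraries.

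Zfp740, which is in no list, followed Zfp281 in WD_WD. It measured 171, 125 and 245 in the CD_CD libraries and 262, 361 and 562 in the WD_CD libraries, against 177, 128 and 57.7 for CD_WD and 33.4, 28.8 and 55.4 for WD_WD, the last on 46 reads. The WD_WD libraries were below the 9 others. The fall against WD_CD was 9.75-fold (-3.28 ± 0.59, limma's adjusted p = 0.00257) and passed under all 15 alternatives, while CD_WD overlapped CD_CD (adjusted p = 0.499). The third carrier of this finger went its own way: Zfp148 measured 452, 403 and 426 in WD_CD and 152, 147 and 760.2 in WD_WD, with 1 WD_WD library above all 3 WD_CD libraries. It did not pass with WD mothers (-0.73 ± 0.59, adjusted p = 0.383) or with CD mothers (-0.73 ± 0.59, adjusted p = 0.452).

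Zfp292, a large protein with 14 fingers found, was the other listed gene to fall. Its values were 364, 343 and 322 in WD_CD and 131, 92.5 and 31.7 in WD_WD, below 342, 163 and 236 in CD_WD as well. The fall with WD mothers was 4.65-fold (-2.22 ± 0.53, limma's adjusted p = 0.0110) and passed under all 15 alternatives. The other 6 genes of the list, Zfp143, Zfp217, Zfp384, Zfp609, Zfp644 and Zfp827, had adjusted p-values from 0.130 to 0.688 with WD mothers. Zfp384 was lower in each WD_WD library than in each WD_CD library (-1.08 ± 0.50), while Zfp827 had a positive change (1.84 ± 1.03).

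Of 9 genes listed for mesenchymal and fat cell lineages 6 were in the table, of which none passed with CD mothers and 1 fell with WD mothers. Among all genes 9.46% rose and 5.55% fell with CD mothers, and 14.2% rose and 10.2% fell with WD mothers. Zfp423, which commits precursors to the fat lineage, was at 155, 364 and 279.6 in the CD_CD libraries and 235, 523 and 393 in the WD_CD libraries, against 2.54, 92.1 and 128 for CD_WD and 162, 0 and 0 for WD_WD. In WD_WD 2 of 3 libraries held no read, and CD_WD replicate 1 held 1 read; the third WD_WD library lay above the lowest CD_CD library, at 155, and CD_WD lay below CD_CD throughout. The log2 fold change with WD mothers was -6.06 ± 1.79 (limma's adjusted p = 0.0276), a size that depends on the pseudocount because of the libraries at 0. It did not pass without WD_CD replicate 2 (0.0791), WD_CD replicate 3 (0.0709), WD_WD replicate 2 (0.0977) or WD_WD replicate 3 (0.0943), nor with edgeR (0.175) or DESeq2 (0.115).

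Its relative Zfp521, which acts against fat cell fate, was at 242, 142 and 102 in WD_CD and 48.8, 176 and 0 in WD_WD and did not pass (-2.89 ± 1.58, limma's adjusted p = 0.195). Zfp467, Zfp516, Zfp703 and Zfp219 had changes of -0.16, -0.44, -0.57 and -0.43 on the log2 scale, with adjusted p-values from 0.566 to 0.881. In the same libraries the summed fibroblast markers were 20784 to 58915 in WD_CD and 5756 to 18253 in WD_WD. With CD mothers these sums were 19865 to 42502 in CD_CD and 2135, 72450 and 40455 in CD_WD. What part the fibroblast markers have in the values of Zfp423 was not tested.

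Zfp704 was even within CD offspring and scattered in WD offspring. It measured 460.0, 446 and 442 in the CD_CD libraries and 634, 645 and 677 in the WD_CD libraries, against 17.7, 103 and 164 for CD_WD and 64.2, 36.4 and 356 for WD_WD. All WD offspring libraries were below all CD offspring libraries, lowest in CD_WD replicate 1. It is 1 of 2 members past the threshold under both mothers' diets, a count given without the share of all genes past it in both. Zfp704 fell 6.57-fold with CD mothers (-2.72 ± 0.85, limma's adjusted p = 0.0488) and 6.84-fold with WD mothers (-2.77 ± 0.85, adjusted p = 0.0327). With 1 library left out, it passed with CD mothers only without CD_WD replicate 3 and with WD mothers only without WD_WD replicate 3; the highest adjusted p was 0.145, without CD_WD replicate 1, and 0.115, without WD_WD replicate 2. With edgeR neither passed (0.0818 and 0.0712), and with CD mothers it did not pass with the compared groups alone (0.0597) or a pseudocount of 0.25 (0.0525). An antisense gene, C030034L19Rik, overlaps 2525 of its exon bases.

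Zfp532, known as a fusion partner in NUT carcinoma, passed the test with CD mothers. It was at 95.4, 197 and 153 in CD_CD and 0, 10.5 and 56.0 in CD_WD, with CD_WD replicate 1 at 0. The log2 fold change was -4.05 ± 1.22 (limma's adjusted p = 0.0424), and of the 6 libraries left out in turn it passed only without CD_WD replicate 3; the highest adjusted p was 0.136, without CD_CD replicate 2. Nor did it pass with edgeR (0.117), the compared groups alone (0.0946) or a pseudocount of 0.25 (0.0598). With WD mothers it measured 193, 163 and 312 and 33.4, 91.0 and 238, which overlap (adjusted p = 0.477), and the interaction had an adjusted p of 0.997. Exons of Zfp532, like those of Zfp704, are overlapped on the antisense strand.

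**Figure D5:**
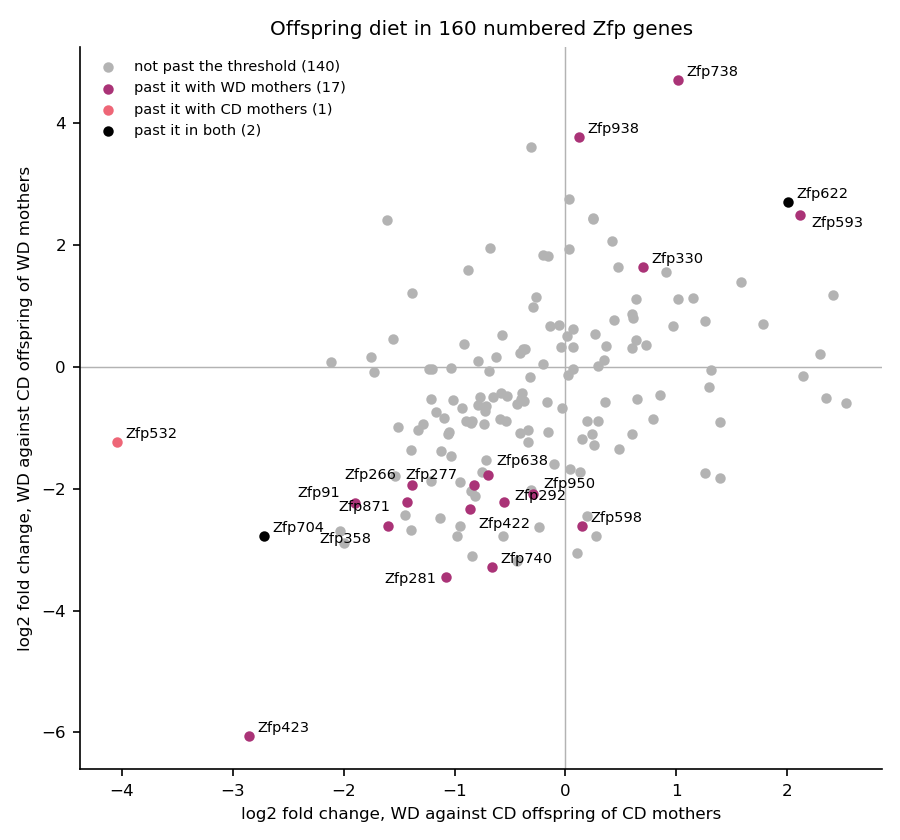
Log2 fold change of WD over CD offspring for the 160 members, with CD mothers (x) and with WD mothers (y); colours give the comparison in which a member passed. Zfp622 and Zfp704 are the 2 members past the threshold in both, and 17 passed with WD mothers alone. Shares of all genes for these counts are not given here.

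Of 5 genes listed for the immune lineage 3 were in the table, of which 1 fell with WD mothers and none passed with CD mothers. For all genes the shares were 14.2% risen and 10.2% fallen with WD mothers, and 9.46% and 5.55% with CD mothers. Zfp91, linked to non-canonical NF-kB signalling, was at 236, 142 and 115 in the CD_CD libraries and 178, 296 and 215 in the WD_CD libraries, against 55.8, 46.0 and 27.5 for CD_WD and 33.4, 45.5 and 67.3 for WD_WD. Each WD offspring library was below each CD offspring library. It fell 4.72-fold with WD mothers (-2.24 ± 0.60, limma's adjusted p = 0.0190), though not without WD_CD replicate 2 (0.0703) or with the compared groups alone (0.0666), and with CD mothers it lay just outside the threshold (-1.89 ± 0.60, adjusted p = 0.0521). The macrophage and lymphocyte marker sums, higher in WD_WD than in WD_CD, moved opposite to this gene, and their part in its values was not tested. Zfp318, which allows B cells to make IgD, and Zfp335, needed for T cell maturation, did not pass (-1.59 ± 0.91 and -1.52 ± 1.03 with WD mothers, adjusted p = 0.213 and 0.293).

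Of the 57 KRAB members 2 rose and 2 fell with WD mothers, beside 14.2% and 10.2% of all genes, and none passed with CD mothers, beside 9.46% and 5.55%. Their median log2 fold change was -0.59 with WD mothers, close to the -0.54 of the 103 members without the pattern, 3 of which rose and 12 fell. Zfp738 measured 0.848, 39.8 and 0 in WD_CD and 190.1, 158 and 43.6 in WD_WD. The groups did not overlap, although WD_CD replicate 2 came within a few units of WD_WD replicate 3, and the log2 fold change was 4.71 ± 1.45 (limma's adjusted p = 0.0333). Zfp938 was at 92.6, 71.9 and 70.6 in CD_CD, 34.8, 7.57 and 0 in WD_CD and 89.9, 150.1 and 55.4 in WD_WD, a log2 fold change of 3.77 ± 1.16 between the latter groups (adjusted p = 0.0333). In both genes WD_CD replicate 3 held no read. Zfp738 did not pass without WD_CD replicate 1 or 3 or WD_WD replicate 1 or 2 (adjusted p = 0.0802, 0.101, 0.0897 and 0.0937), and Zfp938 did not without WD_CD replicate 2 or 3 or WD_WD replicate 1 or 2 (0.0622, 0.0863, 0.0664 and 0.0974). Zfp738 was also lost with edgeR (0.167), DESeq2 (0.0574), the compared groups alone (0.0924) and total scaling (0.0661), and Zfp938 with edgeR (0.141), the compared groups alone (0.138) and total scaling (0.0953).

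Zfp871 went down in WD offspring of both kinds of mother, from 274, 492 and 309.6 (CD_CD) or 272, 557 and 660.0 (WD_CD) to 203, 98.3 and 106 (CD_WD) or 56.5, 102 and 166 (WD_WD). No WD offspring library reached a CD offspring library. The fall was 4.68-fold with WD mothers (-2.23 ± 0.55, limma's adjusted p = 0.0125) and passed under all 15 alternatives, while with CD mothers it did not pass (-1.43 ± 0.55, adjusted p = 0.0972). Zfp266 was at 458, 126 and 304 in WD_CD and 46.2, 77.3 and 83.1 in WD_WD (-1.94 ± 0.60, adjusted p = 0.0332), a fall that did not pass without WD_CD replicate 1 or 3 or WD_WD replicate 1 or 2 (0.111, 0.0859, 0.0829 and 0.0536) or with the compared groups alone (0.0969).

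Of 11 genes listed for imprint control and transposon silencing only 4 were in the table, and none of them passed. Zfp445, which maintains imprints, was at 246 ± 87.8 in WD_CD and 314 ± 288 in WD_WD (SD, n = 3; limma's adjusted p = 0.974). Zfp809, the silencer of murine leukaemia proviruses, was at 244 ± 118 and 108 ± 69.2 (adjusted p = 0.286). Zfp932 and Zfp429 had adjusted p-values of 0.709 and 0.205. In Zfp445 the SD in WD_WD was close to its mean.

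A few further members without a KRAB pattern fell with WD mothers. Zfp358 was at 386, 115 and 118 in WD_CD and 59.1, 42.5 and 7.92 in WD_WD (-2.61 ± 0.82, limma's adjusted p = 0.0348). Zfp422 was at 309, 525 and 283 and 84.8, 16.7 and 238 (-2.33 ± 0.78, adjusted p = 0.0457). Zfp950 was at 313, 315 and 334 and 169.5, 88.0 and 27.7 (-2.08 ± 0.65, adjusted p = 0.0340). These had no overlap between WD_CD and WD_WD, whereas Zfp277, a partner of Polycomb proteins, had overlapping values of 206, 604 and 691 and 51.4, 269.9 and 107 (-1.94 ± 0.62, adjusted p = 0.0392). With 1 library left out, Zfp358 and Zfp277 passed in 2 of 6 cases and Zfp422 and Zfp950 in 1 of 6, with the highest adjusted p at 0.116 (without WD_CD replicate 1), 0.129 (without WD_CD replicate 3), 0.135 (without WD_CD replicate 2) and 0.102 (without WD_WD replicate 3). With the compared groups alone none of the 4 passed (0.119, 0.0904, 0.1000 and 0.0793); Zfp422 was also lost with edgeR (0.0896) and DESeq2 (0.0562), and Zfp950 with edgeR (0.0504).

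The counts themselves moved with single libraries. With WD mothers, members that fell numbered 8 without WD_CD replicate 1 and 6 without WD_CD replicate 2 or without replicate 3; those that rose numbered 3 without WD_CD replicate 1 or WD_WD replicate 3 and 2 without WD_WD replicate 1 or 2. With CD mothers, none fell without any of the CD_CD libraries or without CD_WD replicate 1 or 2, and 3 rose without CD_WD replicate 3. For these refits the share of all genes that rose or fell is not given, so the counts are no result about members alone.

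The mother's diet, which the title of the series names, moved no member past the threshold. In CD offspring 0 members and 0% of all genes passed in either direction by limma, and at an unadjusted p under 0.05 there were 3 members, against 2.59% of all genes. Among WD offspring the counts were again 0 members and 0% of genes, with 9 members at an unadjusted p under 0.05, against 5.89% of all genes. No member passed by edgeR or DESeq2 either. The authors' deposited table calls 0.122% of genes for the mother's diet in CD offspring and 0.338% in WD offspring at its adjusted p under 0.05, and no member is among them. Groups that did not overlap were found for 9 members higher and 5 lower in CD offspring, against 4% and 4.87% of all genes, and for 4 higher and 7 lower in WD offspring, against 5.86% and 4.16%. The median log2 fold change of members was -0.01 in CD offspring, where all genes had -0.05 (0.09 with DESeq2 and 0.10 with edgeR), and -0.25 in WD offspring, where all genes had -0.03; the latter was -0.04 without CD_WD replicate 1, -0.10 without WD_WD replicate 2 and -0.46 without CD_WD replicate 2, and -0.01 with edgeR and 0.00 with DESeq2.

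The smallest p-values for the mother's diet in WD offspring belonged to members already described. Zfp281 was at 93.8, 85.8 and 98.1 in CD_WD and 15.4, 37.9 and 11.9 in WD_WD, without overlap (-2.21 ± 0.63, limma's adjusted p = 0.836). Zfp598 (-2.28 ± 0.69, adjusted p = 0.836) and Zfp292 (-1.68 ± 0.53, adjusted p = 0.836) had no overlap either. The authors' deposited table gives these 3 genes the log2 fold changes -2.00, -2.38 and -1.51, with adjusted p-values of 0.1196, 0.0771 and 0.134. On the positive side Zfp532 (3.39 ± 1.22), Zfp68 (1.68 ± 0.63) and Zfp788 (1.58 ± 0.91) came first, with adjusted p-values of 0.836, 0.836 and 0.863. The CD_WD values that the first of these rests on include the library at 0.

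In CD offspring the lowest p-values for the mother's diet were those of the KRAB gene Zfp938 and of Zfp946 and Zfp719, lower in WD_CD. Zfp946 measured 137, 100.1 and 50.3 in CD_CD and 23.8, 6.77 and 0 in WD_CD (-3.95 ± 1.52, limma's adjusted p = 1.000), and Zfp938 had a log2 fold change of -3.55 ± 1.16 (adjusted p = 1.000). Both were lowest in WD_CD replicate 3, which held no read of them and in which 16 members had no read, the most of any library. Zfp868, Zfp566 and Zfp740 led on the positive side (1.64 ± 0.83, 2.74 ± 1.40 and 1.11 ± 0.59), of which Zfp740 had no overlap between groups.

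Whether the mother's diet acted differently in CD and WD offspring was tested as an interaction. No member and 0% of all genes passed in either direction, and 5 members had an unadjusted p under 0.05 by limma, against 3.21% of all genes. The lowest p-values were those of Zfp740 (-2.62 ± 0.84, adjusted p = 0.997), Zfp598 (-2.76 ± 0.98) and Zfp281 (-2.37 ± 0.89) on the negative side and Zfp938 (3.64 ± 1.64), Zfp946 (4.03 ± 2.15) and Zfp68 (1.64 ± 0.89) on the positive side, all at adjusted p = 0.997. The fall of Zfp281, Zfp740 and Zfp598 past the threshold with WD mothers and not with CD mothers is thus not shown to differ between the mothers' diets.

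KRAB proteins work through a set of partners. Of 29 listed genes of KRAB corepression and silencing, all of them measured, 2 rose with CD mothers, Sumo2 among them, and none fell, beside 9.46% and 5.55% of all genes. With WD mothers 2 rose and 1 fell, beside 14.2% and 10.2%: Cbx1, an HP1 protein, and the DNA methyltransferase Dnmt3a rose and Mta1, a subunit of the NuRD complex, fell. Trim28 itself was at 506 ± 138 in WD_CD and 396 ± 170 in WD_WD (SD, n = 3) and did not pass. The median log2 fold change of the 29 genes was -0.15 with CD mothers and 0.08 with WD mothers. Zinc finger genes of the BTB class are the nearest comparison: of 30 Zbtb genes measured, 2 fell with CD mothers and 10 with WD mothers, none rose, and the median log2 fold changes were -0.39 and -0.80. Of 8 Zscan and Zkscan genes, 1 fell with WD mothers. A difference between these families and the numbered Zfp genes was not tested.

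Promoters are shown for 1 member that fell and 1 that rose, since both passed under all 15 alternatives with WD mothers. The 250 bases before the start of Zfp281 (chr1:136624651-136624900, plus strand) and Zfp622 (chr15:25984116-25984365, plus strand) are from RefSeq on GRCm38.p6, with matches to the GC box GGGCGG and to CCAAT on either strand in capitals.
Zfp281: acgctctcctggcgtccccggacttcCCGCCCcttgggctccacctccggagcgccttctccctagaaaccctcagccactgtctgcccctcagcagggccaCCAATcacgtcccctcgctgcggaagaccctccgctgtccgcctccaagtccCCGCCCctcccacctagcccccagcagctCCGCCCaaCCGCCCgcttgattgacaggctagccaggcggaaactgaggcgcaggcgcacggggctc
Zfp622: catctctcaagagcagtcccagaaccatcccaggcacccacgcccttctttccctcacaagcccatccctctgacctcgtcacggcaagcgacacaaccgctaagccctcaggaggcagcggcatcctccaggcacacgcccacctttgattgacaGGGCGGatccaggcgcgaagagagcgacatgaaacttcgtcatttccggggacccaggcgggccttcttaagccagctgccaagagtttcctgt
Zfp281 holds 4 GC boxes and a CCAAT box, and Zfp622 holds 1 GC box; the first promoter of Zfp740 holds 5 GC boxes and no CCAAT. RefSeq promoters were at hand for 131 of the 160 members (165 promoters). A GC box was found in 53.3% of them, against 58.1% for all genes of the table, and CCAAT in 43.6%, against 34.4%. Within members the letters differed by the KRAB pattern: GC boxes were in 36.1% of promoters with it and 63.5% without it, CCAAT in 55.7% and 36.5%, and the E-box CACGTG in 13.1% and 2.88%, against 8.39% over all genes of the table. These are matches of letters and no evidence of a bound factor.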

How the data were processed

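RNA was measured in 12 libraries. The submitters' processing notes name HISAT2 2.2.1 for GRCm38, featureCounts 2.0.1 and DESeq2; the sources used here do not give strand and multi-mapping settings. The authors deposited a normalised signal per gene and library, which is counts over a size factor: 100% of values were whole multiples of 1 read (tolerance 0.01), with the lowest value of CD_CD replicate 3 taken as 3 reads. The authors' deposited table also holds log2 fold changes and p-values for the mother's diet.

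All 10655 genes entered limma 3.58.1 with a mean-variance trend on log2(value + 1), with 4 group means, which leaves 8 residual degrees of freedom, and genes at a Benjamini-Hochberg adjusted p under 0.05 were called. The added pseudocount shrinks the ratios of low values, but a library without reads can make a change larger than the group means give. For example, Zfp423 averaged 383 in WD_CD and 53.9 in WD_WD, beside a log2 fold change of -6.06. edgeR 4.0.16 and DESeq2 1.42.0 on the recovered reads were alternatives, beside TMM and total scaling, pseudocounts of 0.25 and 8, a mean of at least 100, the compared groups alone, a replicate block and leaving out each library. The limma fit was also run on simulated counts with large changes and the same spread setting for every gene. That setting did not follow the wider spread of low genes, so nothing is concluded from it about members.

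Symbols were matched to GENCODE M21 (160 of 160). Since no protein table was used, fingers and KRAB boxes were sought by letter pattern in the translated longest coding sequence; exon lengths are unions over transcripts. Named members are, per comparison, up to 8 in each direction with the largest change among those past the threshold without overlap (or the 3 with the smallest p), every other member past it, role lists, level and finger extremes, and the most alike pairs. Antisense genes named after a Zbtb gene were kept out of the Zbtb family. The members and lists were chosen with earlier results of these data known. The depth per library, 4074413 to 19670570 reads, gives members 6798 to 76277 reads. A result of the corepression list is not reported here.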

Additional observations from a re-analysis of the deposited data

How the results depend on the processing

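Each comparison was repeated under 8 or 9 other settings and without each library in turn. Counts are given as members risen and fallen, without the share of all genes called in each setting. Under total scaling the median of all genes was itself -1.45 with CD mothers and -1.36 with WD mothers. With CD mothers, where the reported counts are 1 and 2, total scaling gave 0 and 45 (median -1.78), DESeq2 4 and 8, edgeR 2 and 1, the compared groups alone 2 and 0, a pseudocount of 8 2 and 3, a pseudocount of 0.25 1 and 0, and the libraries left out 0 to 3 and 0 to 2. With WD mothers, where they are 5 and 14, total scaling gave 1 and 54 (median -1.92), edgeR 2 and 11, the compared groups alone 2 and 6, a mean of at least 100 3 and 14, and the libraries left out 2 to 5 and 6 to 17. The median of members with WD mothers was -0.25 with DESeq2, -0.37 with edgeR, -0.70 with TMM, -0.47 at a pseudocount of 8, and -0.67 to -0.32 with a library left out. For the mother's diet in WD offspring it was 0.00456 with DESeq2, -0.0131 with edgeR and -0.464 to -0.0404 with a library left out; for the interaction it was -0.351 to -0.0172. The sign turned for Zfp706 with CD mothers (-0.18 under total scaling), for the members' median for the mother's diet in WD offspring with DESeq2, and for that in CD offspring, reported as -0.01: 0.0875 with DESeq2, 0.0957 with edgeR, 0.00449 at a pseudocount of 8, 0.00968 at a mean of at least 100, and -0.0650 to 0.0257 with a library left out. The causes of these shifts were not tested, other than that fewer libraries or genes enter some settings. No member passed for the mother's diet or the interaction in any setting.

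The replicate numbers gave no clear sign of pairing: same-numbered libraries of different groups had deviations correlated at -0.232 to 0.074 across genes. Differently numbered libraries were not set beside them, so this check cannot exclude pairing. With a replicate block the counts were 2 and 2 with CD mothers, with Zfp706 gained, and 5 and 12 with WD mothers, without Zfp422 and Zfp358. Depth limits the low members most, since 1 read is worth up to 3.96 in WD offspring.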
